A study of Danio rerio with 15 samples.

Results

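The giant transcripts described here are the 109 annotated zebrafish transcripts of 12000 bases or more whose mean level was at least 1 CPM (a scale on which each library's counts sum to the same total) over 14 of the 15 muscle libraries. The files listed 208 transcripts of that length, of which 67 had a mean above 0 but below 1 CPM and 32 were at 0 in every library. They were chosen from 57775 transcripts in all, of which 21195 reached 1 CPM. Members were 12025 to 88553 bases long with a median of 14177, against a median of 2116 for all transcripts tested. Of the 109, 62 were under 15 kb and 10 were over 20 kb.

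RNA was taken from dissected skeletal muscle of adult female zebrafish, 1 fish per library. The scaf1-/- fish carried a CRISPR/Cas9 deletion with a premature stop in scaf1, a factor that joins respiratory complexes III and IV, and the scaf1+/+ fish came from a wild-type line of the same founder and AB strain mating. Fish were 7 months old at the start and were fed for 6 weeks on a standard diet (3 feeds a day in the labels) or a double diet (5 feeds a day), all in 2 l tanks. On the standard diet there were 4 fish of each genotype. The double diet groups held 3 scaf1+/+ fish and 4 scaf1-/- fish. The scaf1-/- fish represent 1 mutant line.

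In vertebrate skeletal muscle, very long transcripts encode the giant proteins of the sarcomere and its surroundings. Titin spans from Z-disc to M-band and acts as a molecular spring, nebulin lies along the thin filament, obscurin links myofibrils to the sarcoplasmic reticulum, ryanodine receptors release calcium, and dystrophin ties the cytoskeleton to the membrane. The files give transcript identifiers with no gene name, so which identifier encodes which protein was not determined, the muscle label was not checked against marker genes, and scaf1 itself was not located.

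Total counts were 11671548 to 15844709 in 14 libraries and 4045429 in scaf1+/+ standard diet replicate C, which also detected 15655 transcripts against 27748 to 35800 elsewhere. This library stood apart and was left out of the mean that chose the members. In it, 34 of the 109 giants had no count, against 1 to 9 in each other fish, and 5 of the 55 giants with a mean of 10 CPM or more were among them. The share of giants without a count there (31.2%) was below that of all transcripts at 1 CPM or more (38.2%). These shares were not matched on level. The median of mean CPM was 10.8 for the giants and 4.54 to 7.26 in classes of shorter transcripts. Another 5 giants stood at 5 or more times their mean. The members were chosen on the other fish and not on this one, so these counts are a description of that library and no test. Counts of calls, medians of the main fit and group means of the summed level that involve it are given with and without it. Values of the replicate block are given with it alone.

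Together the giant transcripts took 0.916% to 2.00% of the counts in the 14 fish and 3.89% in replicate C. In the standard diet, summed levels were 15070, 9380, 17773 and 38944 CPM in scaf1+/+ replicates 6, 7, B and C, and 19989, 18942, 10484 and 11967 CPM in scaf1-/- replicates 6, A, B and C. In the double diet they were 9158, 10601 and 14016 CPM in scaf1+/+ replicates 2, 3 and 4, and 9230, 12699, 10334 and 13468 CPM in scaf1-/- replicates 2, 3, 6 and 7. The groups overlapped, except that replicate C lay above all others.

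Group means were 20292 ± 12917 CPM (SD, n = 4) in scaf1+/+ standard diet fish and 14074 ± 4284 (n = 3) without replicate C. They were 15346 ± 4815 (n = 4) in scaf1-/- standard diet fish, 11258 ± 2495 (n = 3) in scaf1+/+ double diet fish and 11433 ± 1984 (n = 4) in scaf1-/- double diet fish. The lower mean of scaf1+/+ fish on the double diet depended on the scale and on replicate C together. After division by TMM factors (a scaling in edgeR that discounts a few dominant transcripts), the scaf1+/+ means were 24616 on the standard diet with all 4 fish, 9918 without replicate C and 10412 on the double diet, so the diet order turned around only without that fish. The scaf1-/- means were 15902 and 14064. On the length-corrected TPM scale the 4 means were 543, 514, 312 and 285 TPM in the same order of groups, and the first was 531 without replicate C. In bulk muscle, fewer cells of a type and less RNA per cell cannot be told apart.

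**Figure D1:**
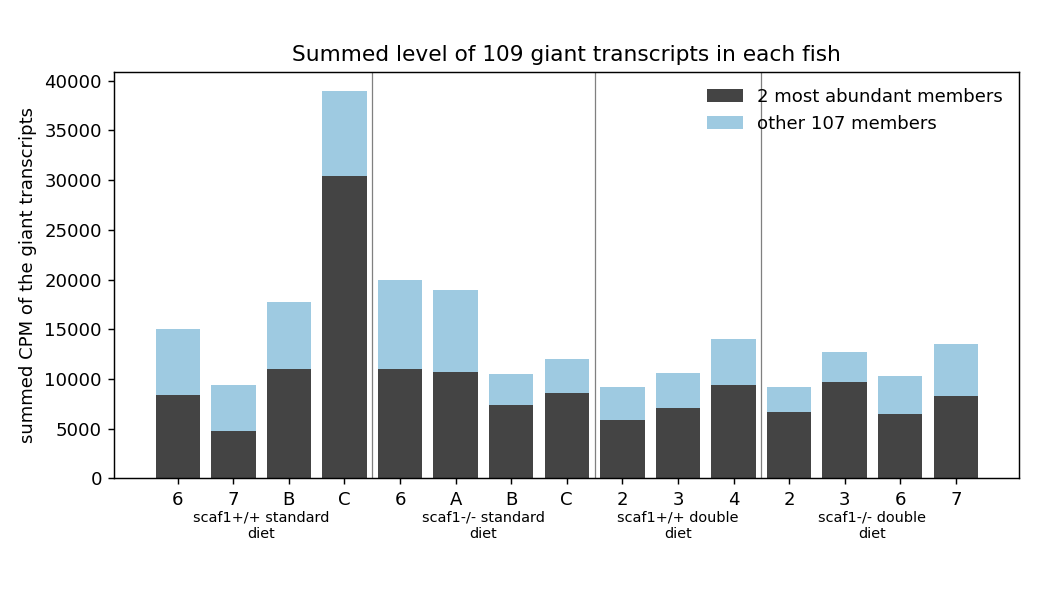
Summed CPM of the 109 giant transcripts in each fish (bars, from 0), split into the 2 most abundant members and the other 107, by group and replicate mark. Replicate C of the scaf1+/+ standard diet group reached 38944 CPM, and the other fish lay between 9158 and 19989 CPM.

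A pair of transcripts made up 50.5% to 78.1% of the giants' counts in each fish. ENSDART00000126871.3, of 67298 bases, averaged 4200 CPM over 14 fish, and ENSDART00000125953.4, of 88553 bases and the longest member, averaged 4030 CPM. The shorter of the pair ranged from 2271 to 5490 CPM in 14 fish and stood at 25885 CPM in replicate C, where the longer was at 4535 CPM. Their ratio in counts was 0.892 to 1.28 in the 14 fish and 5.71 in replicate C. Per length, the ratio was 1.17 to 1.69 and 7.52. Group means of the ratio in counts were 0.951 in scaf1+/+ standard diet fish without replicate C (2.14 with it) and 1.005 in scaf1-/- standard diet fish. On the double diet they were 1.052 in scaf1+/+ and 1.17 in scaf1-/- fish.

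The next members were several fold lower. ENSDART00000143888.3 averaged 845 CPM, ENSDART00000147464.4 752 CPM, ENSDART00000088484.7 498 CPM and ENSDART00000036015.9 336 CPM. The other very long member, ENSDART00000109099.4 of 78795 bases, averaged 199 CPM and ranked 9 by counts but 21 by TPM. At the low end, 29 members averaged under 3 CPM. At the length bound, ENSDART00000127015.3 (12025 bases) was the shortest member and ENSDART00000168139.2 (11955 bases) fell just outside. At the level bound, ENSDART00000160682.2 (1.001 CPM) was inside and ENSDART00000162066.2 (0.894 CPM) outside.

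The other 107 giants varied between fish of 1 group as much as between groups. Their summed level was 9031 and 8239 CPM in scaf1-/- standard diet replicates 6 and A, but 3080 and 3424 CPM in replicates B and C of the same group. In replicates A and 6, 98 and 95 of the 109 members were above their own 14-fish median, against 19 and 16 in B and C. Replicate A held the highest value of 30 members and replicate 6 of 22, that is 27.5% and 20.2% of members, where 9.17% and 8.20% of all transcripts peaked in those fish. Such peaks were not confined to scaf1-/- fish. In scaf1+/+ standard diet replicate 6, 24 members peaked (22.0%, against 14.6% of all) and 91 were above their own median. The scaf1+/+ standard diet replicate 7 showed the reverse, with the peak of 34.3% of all transcripts but of 8.26% of giants. Here and in the next paragraph, all transcripts are the 21195 at 1 CPM or more. The lowest value fell in scaf1-/- double diet replicate 2 for 32 of the 94 members with a single lowest fish. The share was 11.8% of all transcripts with a single lowest fish.

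Much of this was shared with other transcripts, and the makeup of the libraries moved with it. The share of counts taken by the 100 most abundant transcripts was 41.8% and 47.3% in scaf1-/- standard diet replicates 6 and A and 64.7% and 66.7% in B and C. Median deviations of the giants in these 4 fish were 0.79, 0.75, -0.62 and -0.63 on the log2(CPM + 0.5) scale, and those of all transcripts were 0.68, 0.35, -0.67 and -0.72. The part of these shares in the giants' levels was not tested. Set against all transcripts in the same fish, the giants were highest in replicate A, by 0.41, and lowest in scaf1+/+ double diet replicate 2 and standard diet replicate 7, at -0.52 and -0.48, among the 14 fish.

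**Figure D2:**
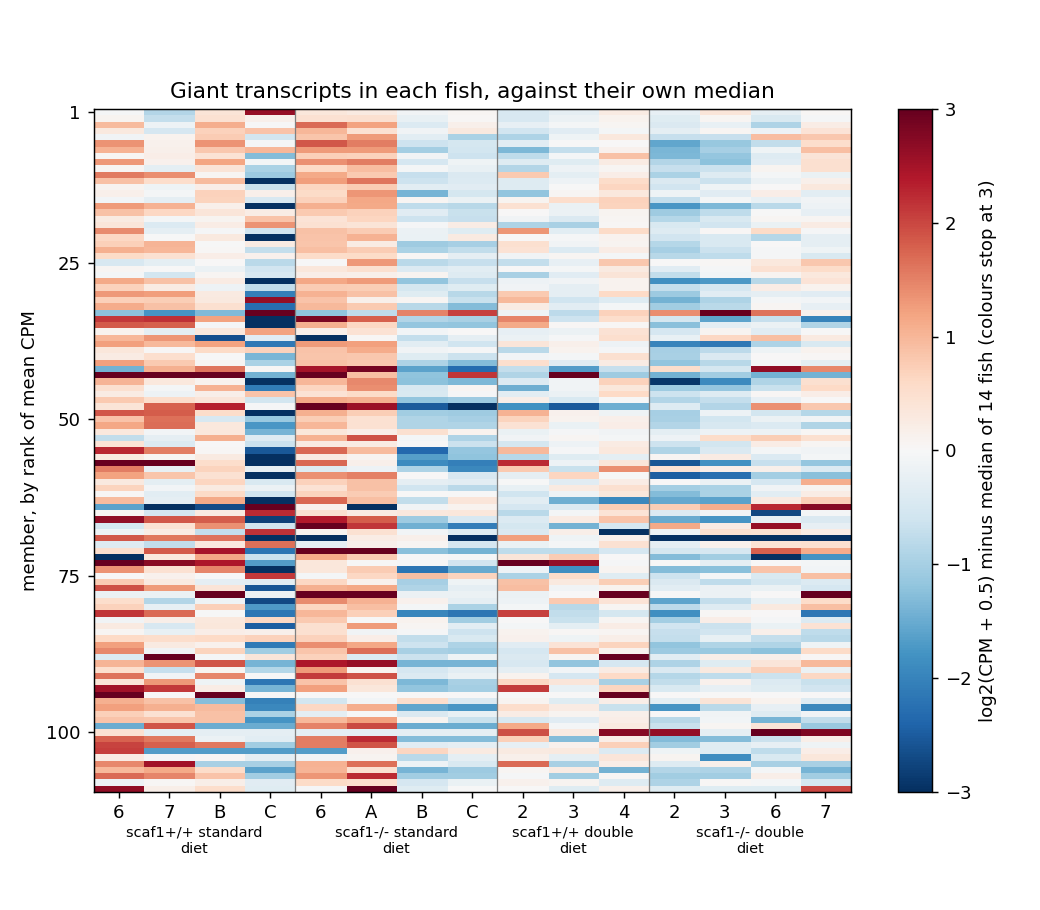
Level of each giant transcript in each fish as log2(CPM + 0.5) minus its median over 14 fish (colour, which stops at 3), with members ordered by mean CPM and fish by group. The scaf1-/- standard diet replicates 6 and A were above the median for 95 and 98 members, and B and C for 19 and 16.

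How the giants' spread within groups stood to that of other transcripts depended on level and scale. The median within-group SD on the log2(CPM + 0.5) scale was 0.739 for the giants and 0.727 for all transcripts tested, without replicate C. All transcripts tested include some under 1 CPM. At a mean of 1 to 3 CPM the medians were 0.956 and 0.820, and at 3 to 10 CPM 0.777 and 0.835. They were 0.762 and 0.727 at 10 to 30 CPM, and 0.617 and 0.542 at 30 or more. With 0.1 added in place of 0.5, the medians over all levels were 0.802 and 1.004. The steadiest giant was ENSDART00000150911.3 (SD 0.158), which stayed between 9.51 and 16.5 CPM in 14 fish, and the most variable was ENSDART00000052915.8 (SD 2.45). The latter stood at 15.5, 8.14, 7.23, 10.97 and 9.77 CPM in 5 fish, at least 1 from each group, and at 0.0769 CPM or less in the other 10. In all, 14 giants (12.8%) had at least 1 fish with 3 counts or fewer and another with 100 or more, against 16.6% of all transcripts at 1 CPM or more.

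The first comparison asked how scaf1-/- fish differed from scaf1+/+ fish on the standard diet. The quasi-likelihood test of edgeR with Benjamini-Hochberg adjustment called none of the 109 giants (the call needed both an adjusted p under 0.05 and a log2 difference above 1), as it called none of the 26970 transcripts tested (0%). At an unadjusted p under 0.05 there were 9 giants (8.26%) against 5.9% of all, and without replicate C 11 (10.1%) against 8.79%. Here and in the comparisons below, the shares of all transcripts were not matched on level and include transcripts under 1 CPM. DESeq2 called 0 giants and 0.182% of all, and without replicate C it called 3 giants (2.8% of the 107 it tested, background 0.56%), ENSDART00000167243.2, ENSDART00000059460.6 and ENSDART00000163976.2. The median log2 fold change was 0.11 for the giants and -0.09 for all transcripts, and without replicate C it was 0.29 and -0.10. The giants' median fell below 0, to -0.11, when scaf1-/- replicate A was left out.

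No giant had separate CPM ranges in the 2 genotypes on the standard diet (background 0.682% higher and 0.467% lower). Without replicate C, 1 was higher (background 1.21%) and 3 were lower (background 3.89%). After TMM scaling the balance was the other way, with 4 higher (3.67%, against 1.27% of all) and 0 lower (0.426% of all) with all fish, and 5 higher (4.59%, against 2.31%) and 2 lower (1.84%, against 3.08%) without replicate C. One of the 3 lower by CPM was ENSDART00000167243.2, at 22.9, 10.01, 8.14 and 0 CPM in scaf1+/+ replicates 6, 7, B and C and at 1.52, 1.08, 1.07 and 0.575 CPM in scaf1-/- replicates 6, A, B and C. Its log2 fold change was -2.59 ± 0.93 (SE) with an edgeR adjusted p of 0.846, and -2.98 ± 0.66 with 0.536 without replicate C. ENSDART00000059460.6 was lower in scaf1-/- by the fit with all fish (-5.73 ± 2.30, edgeR adjusted p = 0.846), and higher without replicate C (3.74 ± 1.17, adjusted p = 0.536). This transcript stood at 4213 CPM in replicate C and at 2.89 to 125 CPM in all other fish.

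On the double diet, which has 3 scaf1+/+ and 4 scaf1-/- fish, edgeR again called 0 giants (0% of all). At an unadjusted p under 0.05 there were 10 giants (9.17%) against 5.05% of all, and 14 (12.8%) against 7.68% in the fit without the standard diet replicate C, which shares its estimate of the spread. The median log2 fold change was -0.05 for the giants and -0.09 for all, and 52 were higher and 57 lower. It turned to 0.18 without scaf1+/+ replicate 4. By CPM, 4 giants were higher in every scaf1-/- fish (3.67%, background 2.24%) and 18 were lower (16.5%, background 9.83%). After TMM scaling these counts were 8 and 7, against 5.58% and 5.43% of all, so lower giants outnumbered higher ones by CPM and not on the TMM scale.

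DESeq2 called 1 giant on the double diet (background 0.357%), ENSDART00000181381.1 of 12492 bases, and 4 without the standard diet replicate C (3.74%, background 0.873%). Its level was 12.8, 4.69 and 5.76 CPM in scaf1+/+ replicates 2, 3 and 4, and 0.0647, 0, 0 and 0 CPM in the scaf1-/- fish. The groups did not overlap. Its DESeq2 adjusted p was 0.0242 (0.00269 to 0.0242 over 4 DESeq2 settings), and 0.954 in edgeR (0.151 to 1 over 22 edgeR and limma settings). On the standard diet it stood at 20.1, 16.5, 17.1 and 0 CPM in scaf1+/+ replicates 6, 7, B and C. In scaf1-/- replicates 6, A, B and C it was at 0, 6.15, 5.82 and 0 CPM. On the double diet, counts before rounding gave 3.9e-06, 3.5e-06 and 2.8e-07 TPM in scaf1-/- replicates 3, 6 and 7. How reads were divided between similar transcripts was not tested.

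ENSDART00000163976.2 was at 0 in all 8 scaf1-/- fish and reached 6.26, 7.97 and 9.77 CPM in 3 of the 7 scaf1+/+ fish, with 0 in the other 4. Its group mean in scaf1-/- fish was at least 16.1-fold lower on the standard diet and at least 15.1-fold lower on the double diet, when their zeros were set to 3 counts in each library, and the scaf1+/+ means, with replicate C at 0 included, rest on those 3 fish. Its groups overlapped, since scaf1+/+ fish were also at 0. For genotype on the standard diet its adjusted p was 0.846 in edgeR and 0.709 in DESeq2 with all fish. The DESeq2 call without replicate C had a log2 fold change of -22.7, with no count in the scaf1-/- fish. These zeros are rounded counts. Before rounding, the scaf1-/- fish stood at 3.1e-07 to 3.8e-05 TPM. How reads were divided between similar transcripts was not tested. On the double diet ENSDART00000153536.3 was higher in scaf1-/- fish (11.7, 5.39, 53.3 and 22.4 CPM against 4.63, 2.15 and 4.71). The groups did not overlap, with a log2 fold change of 2.92 ± 1.09 and an edgeR adjusted p of 0.954. On the standard diet it stood at 47.6, 61.4, 2.30 and 1.22 CPM in scaf1-/- replicates 6, A, B and C. In scaf1+/+ replicates 6, 7, B and C it was at 2.67, 17.3, 25.4 and 8.16 CPM. Its within-group SD over 14 fish was 1.82.

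**Figure D3:**
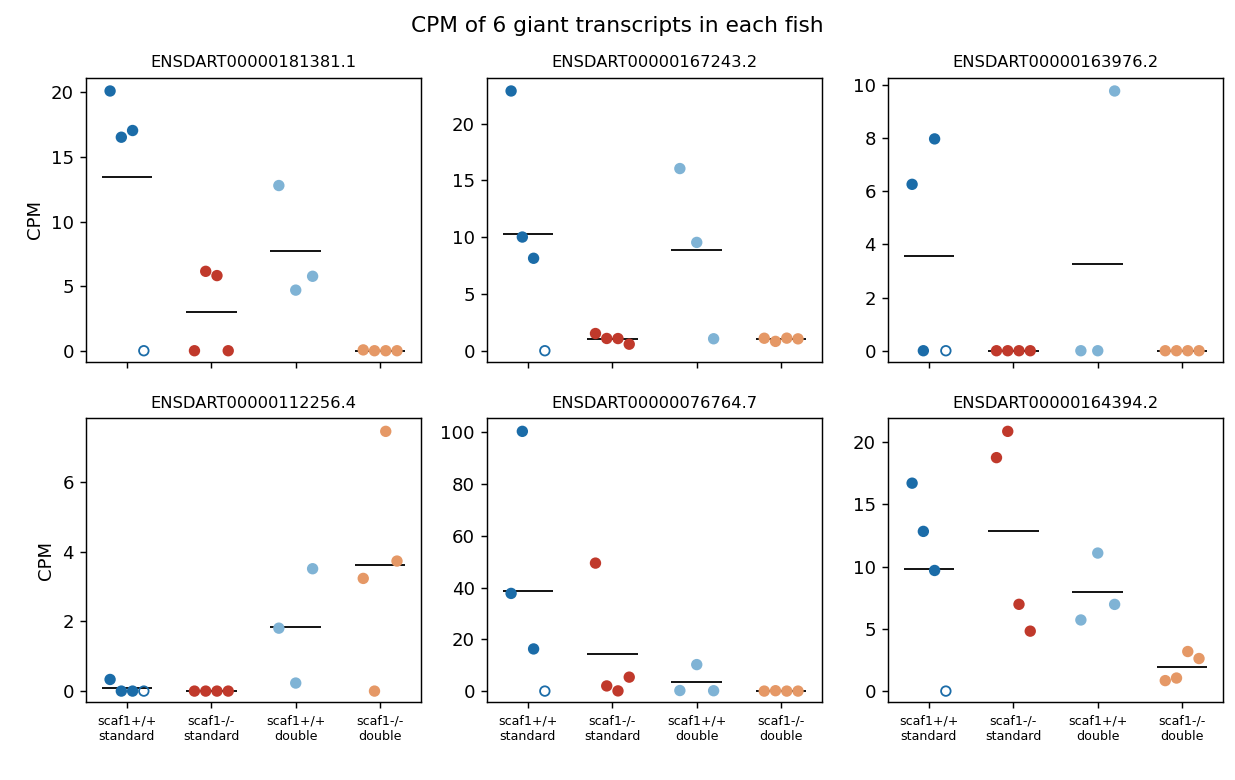
CPM of 6 giant transcripts in each fish (points) by group, with group means (lines) and replicate C of the scaf1+/+ standard diet group as an open circle. ENSDART00000163976.2 was at 0 in all 8 scaf1-/- fish, and ENSDART00000112256.4 was at 0 in all 4 scaf1-/- standard diet fish.

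The effect of the double diet was then compared within each genotype. In scaf1+/+ fish edgeR called 0 giants (0% of all). At an unadjusted p under 0.05 there were 4 (3.67%) against 3.9% of all, and without replicate C 5 (4.59%) against 4.57%. DESeq2 called 0 with all fish (background 0.143%) and 0 without replicate C (background 0.226%). The median log2 fold change was -0.20 for the giants and -0.10 for all, and without replicate C it was -0.11 and -0.16, so the giants stood below all transcripts with that fish and above them without it. By CPM, 0 giants were higher in every double diet fish (background 2.04%) and 5 were lower (4.59%, background 1.16%). Without replicate C, 2 were higher (background 3.33%) and 25 were lower (22.9%, background 12.1%). After TMM scaling, 1 was higher (0.917%, against 2.48% of all) and 1 lower (0.917%, against 0.864%) with all fish, and 4 were higher (3.67%, against 5.11%) and 14 lower (12.8%, against 6.86%) without replicate C.

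ENSDART00000185021.1, among those lower by CPM, stood at 469, 251, 400 and 458 CPM in the standard diet fish and at 88.4, 139 and 248 CPM in the double diet fish. The ranges lay side by side, with 251 and 248 CPM at their edges, and they overlapped after division by the TMM factors. Its log2 fold change was -1.40 with an unadjusted p of 0.063.

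In scaf1-/- fish most giants had lower fitted values on the double diet, and none passed the edgeR test. The median log2 fold change of double against standard diet was -0.34 for the giants and -0.10 for all, and 83 of the 109 were lower (76.2%, against 56.5% of all). The distance of the giants' median from 0, and not from the median of all, was 1.3 times the pooled SD of the fish's own medians, 0.255. Over leaving out each fish in turn, the giants' median ran from -0.44 to -0.20. A fit with a replicate block gave -0.10. The shift was not shared by every double diet fish. The giants' median deviation was set against that of all transcripts at 1 CPM or more in the same fish. This gave -0.22, -0.27 and -0.26 in double diet replicates 2, 3 and 6, but 0.32 in replicate 7. On the standard diet it gave 0.11, 0.41, 0.05 and 0.09 in replicates 6, A, B and C. Double diet replicate 7 thus lay above each of these but replicate A. EdgeR called 0 giants (0% of all), and at an unadjusted p under 0.05 there were 6 (5.5%) against 5.69% of all. Without the scaf1+/+ standard diet replicate C, which enters this comparison only through the shared estimate of the spread, there were 14 (12.8%) against 8.66%. By CPM, 1 giant was higher (background 1.71%) and 5 were lower (4.59%, background 2.55%) in every double diet fish, and after TMM scaling 2 (1.84%, against 1.89% of all) and 5 (4.59%, against 2.44%).

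DESeq2 called 3 giants for diet in scaf1-/- fish (2.86% of the 105 it tested, background 0.455%), and 5 without the scaf1+/+ replicate C (4.67%, background 1.23%). ENSDART00000164394.2 was at 18.7, 20.9, 6.97 and 4.81 CPM on the standard diet and 0.841, 1.05, 3.18 and 2.61 CPM on the double diet, without overlap. Its DESeq2 log2 fold change was -2.51 with an adjusted p of 0.0496 (2.95e-05 to 0.0496 over 4 DESeq2 settings, and 0.328 to 1 over 22 edgeR and limma settings). In scaf1+/+ fish it stood at 16.7, 12.8, 9.68 and 0 CPM on the standard diet and at 5.71, 11.1 and 6.96 CPM on the double diet.

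ENSDART00000112256.4 had no count in the 4 scaf1-/- standard diet fish and stood at 3.24, 0, 7.46 and 3.73 CPM on the double diet, a mean at least 16.3-fold higher than the floor. The DESeq2 adjusted p was 0.0108 (edgeR 0.842), and the groups overlapped at 0. In scaf1+/+ fish it was at 0.334, 0, 0 and 0 CPM on the standard diet and at 1.81, 0.231 and 3.51 CPM on the double diet. ENSDART00000076764.7 was at 49.4, 1.99, 0.0765 and 5.39 CPM on the standard diet and at 0, 0.15, 0 and 0 CPM on the double diet, with a DESeq2 adjusted p of 0.0184 and an edgeR adjusted p of 0.842. One standard diet fish carried most of its level, and the groups overlapped.

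**Figure D4:**
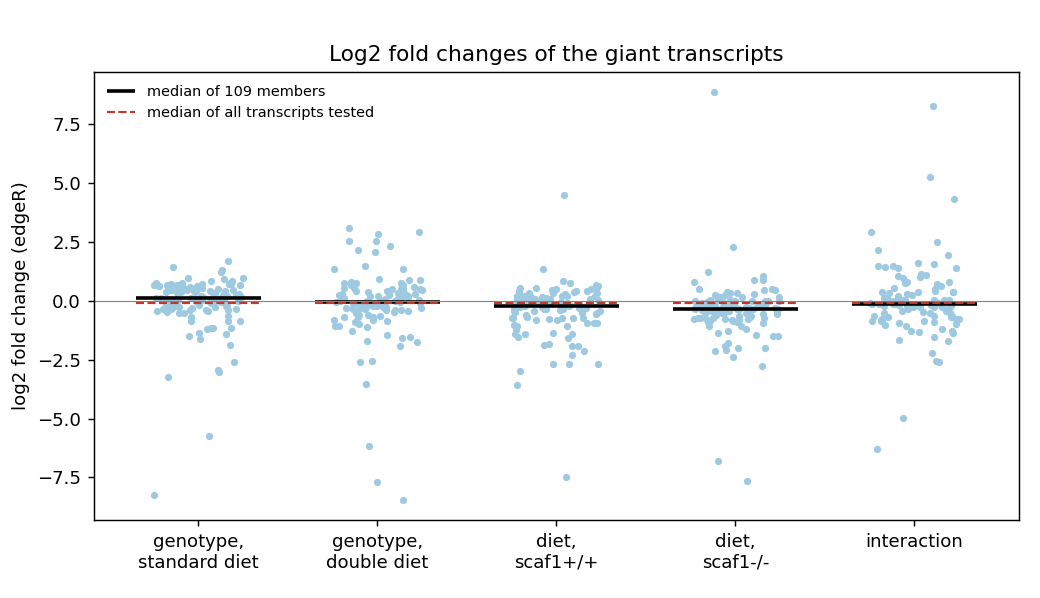
Log2 fold changes of the 109 giant transcripts in each comparison (points, edgeR), with their median (black) and the median of all 26970 transcripts tested (red, dashed). With all 15 libraries the medians lay farthest apart for diet in scaf1-/- fish, at -0.34 and -0.10.

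The interaction, which asks whether the diet effect differed between genotypes, gave 0 giants in edgeR (0% of all), 3 at an unadjusted p under 0.05 (2.75%, against 3.87% of all, and 4 or 3.67% against 3.41% without replicate C) and 0 in DESeq2 with all fish (background 0.136%) or without replicate C (background 0.123%). The median was -0.14 for the giants and -0.09 for all, and -0.25 and -0.03 without replicate C. A difference between the genotypes in the giants' response to diet was therefore not detected here.

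The giants were the end of a trend with length in the fitted medians of scaf1-/- fish, but not in each of these fish. From the shortest class to the longest (under 1 kb, 1 to 2, 2 to 4, 4 to 8, 8 to 12 and 12 kb or more), the median log2 fold change of diet was 0.17, 0.02, -0.12, -0.16, -0.26 and -0.34. Median deviations on the log2(CPM + 0.5) scale fell with each class in double diet replicates 3 and 6. In double diet replicate 2 they were -0.35, -0.57, -0.72, -0.64, -0.72 and -0.84, out of order at the fourth class. In double diet replicate 7 they were -0.17, -0.40, -0.44, -0.20, -0.20 and -0.02, highest in the giants. On the standard diet they rose with each class in replicate A, from 0.15 to 0.75, and not in replicates 6, B and C. Without replicate A the giants' median log2 fold change of diet was -0.20. In scaf1+/+ fish the medians were 0.11, 0.00, -0.13, -0.15, -0.27 and -0.20, so the giants did not continue the series. Without replicate C they were 0.26, -0.11, -0.26, -0.14, -0.24 and -0.11, and the order was broken after the third class. The classes hold 3290, 6112, 7083, 4058, 498 and 109 transcripts of the same fish, which are not replicates, and no test was made of the trend. Neither genotype comparison had medians in the order of length.

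**Figure D5:**
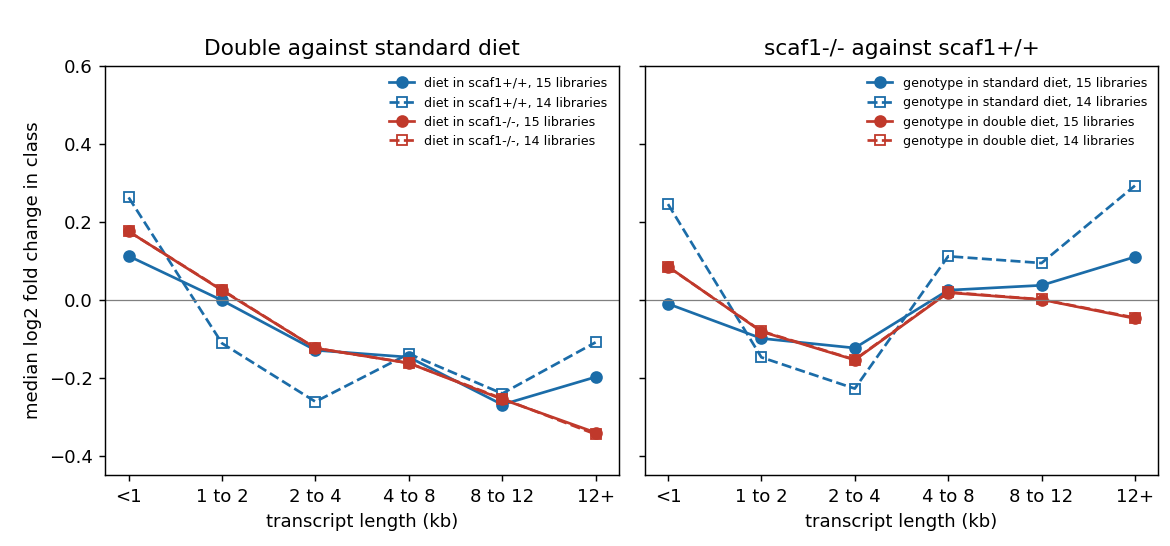
Median log2 fold change (edgeR) in 6 classes of transcript length, for diet (left) and genotype (right), with all 15 libraries (filled) and without replicate C (open). For diet in scaf1-/- fish the median went from 0.17 in transcripts under 1 kb to -0.34 in those of 12 kb or more.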

How the data were processed

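Muscle RNA of 15 zebrafish was sequenced by the authors on an Illumina HiSeq system, all libraries in lane 5, and quantified with kallisto 0.45.0 against Ensembl release 94 cDNA. Each deposited file holds the estimated count of every transcript beside its length and effective length. FastQC 0.11.8 and sleuth appear in the submitters' processing notes, and DESeq2 with shrinkage in the methods. Groups and replicate marks came from the sample labels, which give 13 fish per tank where the methods differ.

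Estimated counts were rounded. CPM and TPM were computed here from counts and effective lengths. Transcripts kept by filterByExpr (smallest count 10) were scaled by TMM and tested in edgeR 4.0.16 (R 4.3.3, robust quasi-likelihood test, all 15 libraries, 1 coefficient per group, Benjamini-Hochberg over 26970 transcripts). A call needed both an adjusted p below 0.05 and a log2 difference above 1 in either direction. All 109 members passed the filter. Scripts were tested on simulated data.

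DESeq2 1.42.0 was run in 3 forms. The first tuned its independent filter to 0.05 and called 0, 1, 0, 4 and 0 members (genotype on the standard and then the double diet, diet within scaf1+/+ and then scaf1-/- fish, interaction). After these counts were seen, the default filter of 0.1 was taken, following an earlier processing of these data, and it called 0, 1, 0, 3 and 0. The last form, with contrasts by group names, was tried because the counts over all transcripts differed from that earlier processing, and it changed no count. The cause of that difference was not tested. The default form is the one reported.

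The members, lists and tests were chosen with earlier results of these data known. Named members were the 12 with the highest mean CPM, the 5 next by TPM, the 3 of smallest p in each direction and comparison, those called, the 5 steadiest and 5 most variable, the 3 longest and those at the thresholds; a selection of these is given. Lists of genes and cell type markers were not used, because no table here pairs transcripts with genes, and no sequence is shown for the same reason.

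Replicate marks shared by the genotypes were checked by the correlation of deviations from group means over all transcripts tested. On the standard diet r was 0.46, 0.16 and 0.49 for marks 6, B and C. On the double diet it was -0.13 and -0.23 for marks 2 and 3. Over the 109 members alone r was 0.03, -0.38 and 0.45 on the standard diet, and 0.11 and 0.16 on the double diet. Mark C joined the libraries with the fewest transcripts detected, 15655 and 27748. The labels do not say that marks pair fish. Over all transcripts r was positive for each shared mark on the standard diet and negative on the double diet, so the values do not settle it. The main fit did not use the marks. Other settings tried were DESeq2 with shrinkage, median-ratio scaling, limma 3.58.1 with pseudocounts of 1 and 0.1 on the log2 TPM scale, no filter, calls by adjusted p without a fold, fits of just 2 groups, other bounds on length and level, the replicate block, and leaving out each fish. TMM-scaled ranges, counts of small p-values without replicate C, the summed level without the 2 most abundant members and the first DESeq2 form were added after seeing the data. A zero is compatible with up to 3 counts in that library, which covers counting error alone. By the methods, fish were placed in tanks that each received 1 diet, and the tank of each sequenced fish is not given. Diet and tank therefore cannot be told apart, and p-values measure the spread between these fish.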

Additional observations from a re-analysis of the deposited data

Results flagged for a closer look

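In 15 sets of 4 fish looked at for 1 fish far from the others, 2 stood out, both for scaf1+/+ standard diet replicate C. Chance marks about 1 in 20 such sets when they are independent, but that rate applies to neither flag. The members, and the pair in the ratio, were chosen by their mean over the other 14 fish. The sets also overlap, as they hold several measures of the same fish. The ratio of ENSDART00000126871.3 to ENSDART00000125953.4 was 5.708 in that fish and 0.920 to 0.989 in the other 3 of its group. The number of giant transcripts without a count was 34 in that fish and 3 to 5 in the others. Its total of 4045429 counts was the lowest of all libraries. At that total, every member's mean CPM over the other 14 fish came to at least 3 counts. The bound of 1 CPM fixed this in advance. In that fish 42 members were under 3 counts. Low members can fall under 3 by counting error alone, so this is no test. The part of depth in these values was not tested.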

How the results depend on the processing

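With edgeR and limma no setting called a giant transcript. Counts of calls differed with DESeq2. For genotype in double diet it called 1 with the default filter, 1 with shrinkage and 1 with the filter tuned to 0.05 (the form run first). For diet in scaf1-/- fish these counts were 3, 3 and 4, the fourth being ENSDART00000181381.1. Without scaf1+/+ standard diet replicate C, DESeq2 called 3 giants for genotype in standard diet, 4 for genotype in double diet and 5 for diet in scaf1-/- fish, of 161, 259 and 355 transcripts in all. The median log2 fold change for genotype in double diet was -0.37 by limma on log2(TPM + 0.1). The cause of these differences was not tested.

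With the replicate block no giant was called in any comparison, and the medians were 0.15 and -0.03 for genotype on the standard and double diet, 0.10 and -0.10 for diet in scaf1+/+ and scaf1-/- fish, and -0.25 for the interaction, so for diet in scaf1+/+ fish the sign of the median turned. Leaving out each fish in turn, the medians ran from -0.11 to 0.29, from -0.20 to 0.18, from -0.29 to -0.09, from -0.44 to -0.20 and from -0.25 to -0.03 in the order standard diet genotype, double diet genotype, scaf1+/+ diet, scaf1-/- diet and interaction.

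The log2 ratio of summed levels was 0.02 for genotype in double diet by CPM and 0.43 after division by TMM factors. For genotype in standard diet it was -0.40 by CPM and -0.63 with TMM factors, and without replicate C it was 0.12 and 0.68, so leaving out that fish turned the sign on both scales. For diet in scaf1+/+ fish it was -0.85 and -1.24, and without replicate C -0.32 and 0.0701. For diet in scaf1-/- fish it was -0.42 by CPM, -0.18 with TMM factors and -0.85 by TPM. Without the 2 most abundant members and with all fish, the CPM ratios were -0.16 and -0.06 for genotype on the standard and double diet. For diet in scaf1+/+ and scaf1-/- fish they were -0.80 and -0.70. The other 107 averaged a summed 6640 CPM in scaf1+/+ standard diet fish, and 6012 CPM without replicate C. Their means were 5944 CPM in scaf1-/- standard diet fish and 3811 CPM in scaf1+/+ double diet fish.

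Without replicate C, signs turned for ENSDART00000059460.6, to 3.74 (3.60 in DESeq2) for genotype in standard diet, 2.00 (1.97) for diet in scaf1+/+ fish and -1.19 (-1.08) for the interaction, and for ENSDART00000090669.7, to -1.54 (-1.51) for the interaction. Over leaving out each fish, these values reached -6.57, -8.13, 9.13 and 6.02 at the other end, in the same order. ENSDART00000181381.1 turned to 0.11 for the interaction by limma on log2(TPM + 1).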
